A study of Mus musculus with 15 samples.

Results

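The 40 genes described here carry out the division of cells in mouse skin. They comprise 17 replication members, which copy DNA in S phase, and 23 mitotic members, which separate the copies in mitosis. They were chosen by name, and each was found by its Ensembl identifier among the 56059 genes of the count table. All 40 passed the filter on low counts, which left 18651 genes for testing.

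The study modelled the skin-hardening (sclerodermatous) form of chronic graft-versus-host disease, in which the transplanted immune cells injure the skin of the recipient, and sequenced total RNA of skin in 15 libraries. The combination group (n = 4) was allogeneic recipients dosed with Wnt-C59 at 5 mg/kg plus belumosudil at 150 mg/kg, and the Wnt-C59 group (n = 4) was allogeneic recipients dosed with Wnt-C59 alone at 5 mg/kg. Allogeneic controls (n = 3) took 0.4% methylcellulose, the vehicle, and so did syngeneic controls (n = 4), whose grafts came without an immune mismatch. All dosing was oral and daily from day 21 to day 49 after transplantation. Wnt-C59 blocks porcupine, the enzyme that lipidates Wnt proteins before secretion, and belumosudil blocks the kinase ROCK2. Strain, age and sex are not given in the sources used here, and no group with belumosudil alone and no treated syngeneic group was analysed here. Nothing in the labels says how animals relate to libraries, so p-values measure the spread between these libraries, which may in part be technical.

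Before S phase, Cdc6 and Cdt1 load the ring of MCM proteins onto the origins of replication, and Cdc45 with the GINS complex turns this ring into the active helicase. Pcna then clamps polymerases to DNA while nucleotide enzymes such as ribonucleotide reductase supply building blocks. Transcription of these genes is driven by E2F factors at the entry to S phase, whereas mitotic genes are switched on later through B-Myb, Foxm1 and the promoter element called CHR. In skin, the cells known to divide are basal keratinocytes, the matrix of growing hair follicles, sebaceous gland progenitors and activated immune cells.

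Estimated counts summed to 18.99 M to 28.78 M (M, mega) in the 8 treated libraries and 16.26 M to 20.39 M in the 7 vehicle libraries. Treated columns of the table carry short names. The Wnt-C59 libraries (1, 2, 4 and 5) were matched by name, while the combination libraries (2, 3, 4 and 5) have an abbreviated name whose meaning is not given, and were assigned by elimination, so every result of that group rests on this assignment. Both treated groups stood apart from both vehicle groups in technical measures. Of the nonzero values, 44.76% to 60.62% were not whole numbers in treated libraries, against 31.07% to 34.39% in vehicle libraries. The nuclear RNA Malat1 lay at 65.0 to 135.7 CPM (counts per M of the scaled library size) in treated libraries and at 1071 to 3501 CPM in vehicle libraries. No label names a batch, so such a split and the treatment cannot be told apart. Markers of basal keratinocytes summed to 5814 to 29841 CPM in all libraries, which matches the labelled tissue. Combination libraries 4 and 5 stood apart from 2 and 3. Hair follicle markers summed to 46878 and 7847 CPM in libraries 4 and 5, against 2466 and 2424 CPM in libraries 2 and 3. Library 5 also had 22.7 CPM of skeletal muscle markers, where every other library had at least 2246 CPM.

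In treated skin the replication members stood above the mitotic members, and in vehicle skin the classes stood level. The mean log2 CPM of the 17 replication members was 5.54 ± 0.34 in combination skin (SD, n = 4), 5.12 ± 0.15 in Wnt-C59 skin (n = 4), 4.70 ± 0.27 in allogeneic skin (n = 3) and 5.33 ± 0.11 in syngeneic skin (n = 4). The mean log2 CPM of the 23 mitotic members was 3.95 ± 0.64, 3.67 ± 0.31, 4.58 ± 0.47 and 5.39 ± 0.13 in the same order of groups. The difference between the class means was 1.93, 2.33, 0.98 and 1.14 in combination libraries 2, 3, 4 and 5, and 1.39, 1.80, 1.75 and 0.90 in Wnt-C59 libraries 1, 2, 4 and 5. It was -0.22, 0.54 and 0.04 in allogeneic libraries 1 to 3, and -0.14, -0.18, 0.07 and -0.01 in syngeneic libraries 1 to 4. Every treated library lay above every vehicle library in this difference, and allogeneic and syngeneic libraries overlapped. In bulk skin, fewer dividing cells and less RNA per dividing cell cannot be told apart.

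**Figure D1:**
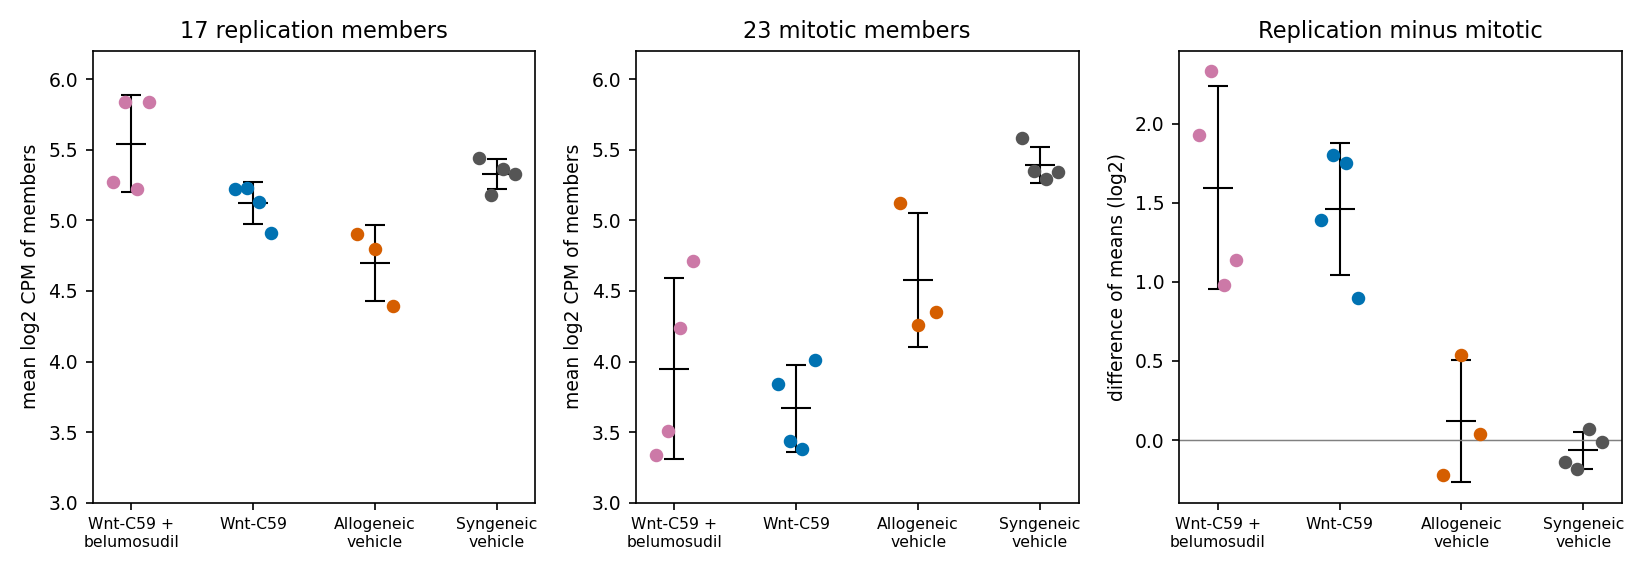
Mean log2 CPM of the 17 replication members (left) and of the 23 mitotic members (middle), and their difference (right), by group. Points are libraries and bars are mean ± SD. The 8 treated libraries lie between 0.90 and 2.33 in the right panel, above all 7 vehicle libraries (-0.22 to 0.54).

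Libraries of a group shared their deviations across members. All 23 mitotic members were highest in library 5 among the combination libraries, and all 23 were highest in library 1 among the allogeneic libraries. Wnt-C59 library 5 held the highest value of its group for 20 of 23 mitotic members and the lowest for 10 of 17 replication members. Replication members peaked elsewhere in the combination group, with 11 of 17 highest in library 3 and 5 in library 5. The median coefficient of variation of mitotic members was 44.5% in combination skin, 23.3% in Wnt-C59 skin, 35.4% in allogeneic skin and 14.3% in syngeneic skin. For replication members it was 26.4%, 14.0%, 19.6% and 11.1% in the same order.

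**Figure D2:**
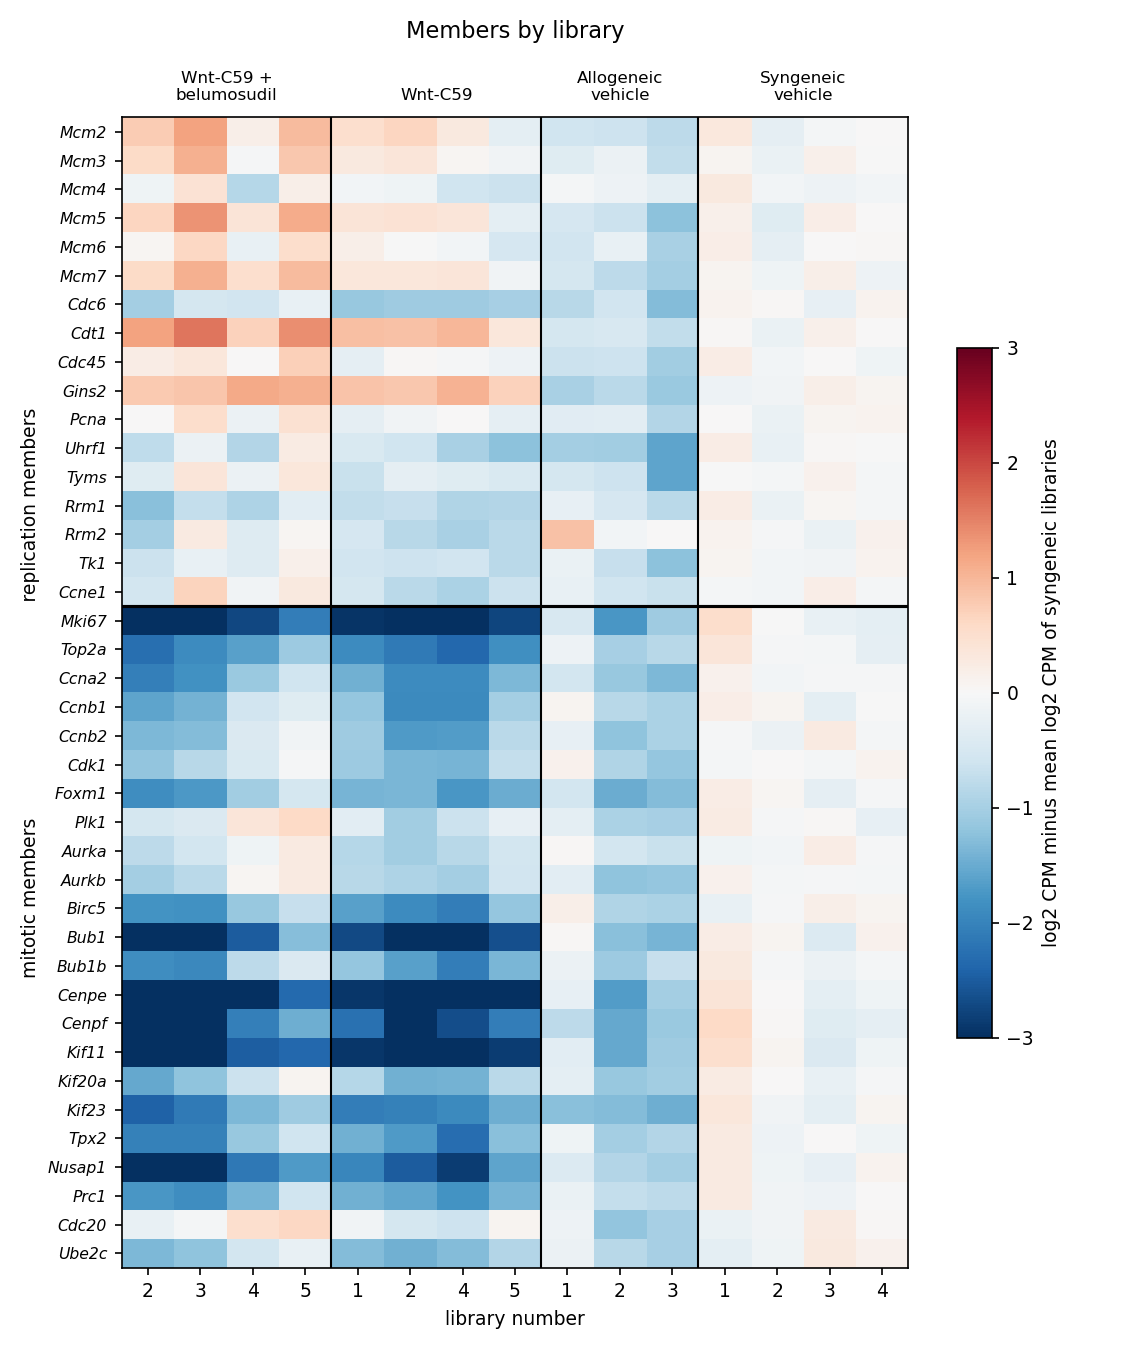
Log2 CPM of each member (rows) in each library (columns, numbered as in the text) minus its mean log2 CPM over the 4 syngeneic libraries. Red is higher and blue is lower than syngeneic, with colours capped at 3 in either direction. The lower block (mitotic members) is mostly blue in treated libraries. Of the upper block, Cdt1 and Gins2 are red in all treated libraries, while Rrm1 is blue in both treated groups.

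Per kilobase of the longest transcript, Pcna, the polymerase clamp, had the highest level of the 40 over all libraries (78.2 CPM per kb). Next came the helicase subunits Mcm7 (27.3 CPM per kb) and Mcm5 (22.2 CPM per kb), and then Cdc20 (20.8 CPM per kb), which activates the ubiquitin ligase that ends mitosis. The lowest levels per length were those of Cdc6 (1.67 CPM per kb) and Cenpf, a large kinetochore protein (2.31 CPM per kb). Replication members held ranks 1 to 3 and mitotic members ranks 37 to 39, but both classes spanned most of the range.

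Promoters were compared because the classes moved apart. RefSeq promoters (GRCm38.p6, 250 bases before to 50 after the transcription start) were at hand for 33 members, 15 of them replication and 18 mitotic. Both strands were searched for an E2F site (TTTCCCGC, TTTCGCGC, TTTGGCGC or TTTGCCGC), the CHR element (TTTGAA), its second form (TTTAAA) and the CCAAT box (CCAAT). An E2F match was found in 6 of 15 replication promoters (Mcm3, Mcm5, Mcm6, Mcm7, Cdc6 and Cdt1) and in 1 of 18 mitotic promoters (5.56%: Cdk1), against 2.32% of all 27025 genes with a promoter. A TTTGAA match was found in 2 of 15 replication promoters (13.3%) and 13 of 18 mitotic promoters (72.2%), against 18.1% of all. TTTAAA was in 26.7% and 33.3%, against 13.2% of all, and CCAAT in 66.7% and 88.9%, against 37.9% of all. Such a match is a run of letters and not a bound site. Below are the promoters of 6 members, chosen to show replication members with a rise in treated skin (Cdt1, Mcm5), mitotic members with a large fall (Mki67, Kif11), and mitotic members that did not fall past the test in treated against allogeneic skin (Cdc20, Kif23). Each is printed 5′ to 3′ on the strand of its gene, with motif matches of either strand in capitals.
Cdt1 (chr8:122567765-122568064, plus strand): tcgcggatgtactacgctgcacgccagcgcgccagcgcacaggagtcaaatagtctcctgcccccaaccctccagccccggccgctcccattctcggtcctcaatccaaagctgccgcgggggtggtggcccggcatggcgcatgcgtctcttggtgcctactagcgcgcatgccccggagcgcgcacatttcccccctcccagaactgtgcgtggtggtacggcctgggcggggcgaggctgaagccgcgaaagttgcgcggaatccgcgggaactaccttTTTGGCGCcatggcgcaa
Mcm5 (chr8:75109259-75109558, plus strand): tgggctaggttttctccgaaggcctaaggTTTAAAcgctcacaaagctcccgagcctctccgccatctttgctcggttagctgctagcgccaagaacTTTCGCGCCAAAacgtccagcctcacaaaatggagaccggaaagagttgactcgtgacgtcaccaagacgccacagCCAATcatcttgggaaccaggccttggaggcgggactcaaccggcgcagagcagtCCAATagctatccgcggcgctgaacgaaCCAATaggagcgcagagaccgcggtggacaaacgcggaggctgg
Mki67 (chr7:135716330-135716629, minus strand): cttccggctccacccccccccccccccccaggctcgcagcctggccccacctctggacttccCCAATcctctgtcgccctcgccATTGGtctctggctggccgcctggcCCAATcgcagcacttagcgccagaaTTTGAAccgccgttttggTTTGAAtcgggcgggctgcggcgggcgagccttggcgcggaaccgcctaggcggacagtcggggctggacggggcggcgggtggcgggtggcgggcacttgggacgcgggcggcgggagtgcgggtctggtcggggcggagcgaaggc
Kif11 (chr19:37376132-37376431, plus strand): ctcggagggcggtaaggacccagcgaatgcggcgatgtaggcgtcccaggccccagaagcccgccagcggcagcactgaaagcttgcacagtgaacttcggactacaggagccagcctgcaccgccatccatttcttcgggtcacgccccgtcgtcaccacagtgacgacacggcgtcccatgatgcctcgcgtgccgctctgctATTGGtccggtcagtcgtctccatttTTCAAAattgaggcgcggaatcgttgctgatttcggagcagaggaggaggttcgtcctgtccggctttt
Cdc20 (chr4:118437294-118437593, minus strand): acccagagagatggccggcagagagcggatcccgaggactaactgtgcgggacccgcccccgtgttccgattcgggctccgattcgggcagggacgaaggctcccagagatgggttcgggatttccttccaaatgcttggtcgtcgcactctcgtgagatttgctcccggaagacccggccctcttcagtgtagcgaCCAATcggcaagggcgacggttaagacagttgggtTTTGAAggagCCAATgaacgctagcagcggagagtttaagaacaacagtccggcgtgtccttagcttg
Kif23 (chr9:61946750-61947049, minus strand): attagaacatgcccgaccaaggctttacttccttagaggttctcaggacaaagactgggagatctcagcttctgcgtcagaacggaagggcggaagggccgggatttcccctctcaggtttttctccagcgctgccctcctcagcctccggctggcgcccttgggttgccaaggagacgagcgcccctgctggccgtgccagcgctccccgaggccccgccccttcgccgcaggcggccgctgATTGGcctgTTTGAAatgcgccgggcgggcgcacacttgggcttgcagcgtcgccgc
Cdt1 has 1 E2F match, which starts 33 bases after the transcription start. Mcm5 has 2 overlapping E2F matches, 1 on each strand, beside 3 CCAAT boxes and a TTTAAA. Mki67 has 2 TTTGAA matches and 3 CCAAT boxes, and no E2F match in this window. Kif11, Cdc20 and Kif23 each have 1 TTTGAA match and at least 1 CCAAT box, while their fold changes in combination against allogeneic skin were -2.01, 0.95 and -0.30 on the log2 scale. Promoters of Foxm1, Tpx2, Aurkb, Kif20a, Gins2, Mcm4 and Ccna2 were not used here.

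The comparison of allogeneic with syngeneic vehicle skin asks how diseased skin differed in these genes. Members of both classes were lower in allogeneic skin, and none was higher past the test. Of 17 replication members 10 fell (58.8%), against 15.1% of all 18651 genes, and 5 of 23 mitotic members fell (21.7%), near that background. In either direction 29.8% of all genes changed. A total of 16 replication and all 23 mitotic members had a log2 fold change below 0, with medians of -0.65 and -0.73 beside -0.07 over all genes. Libraries did not overlap, with allogeneic lower, for 13 of 17 replication and 11 of 23 mitotic members, against 19.9% of all genes.

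Among factors of origin firing, Gins2, a subunit of the GINS complex, lay at 25.7, 28.7 and 23.3 CPM in allogeneic skin, against 45.3, 46.5, 56.3 and 53.1 CPM in syngeneic skin. All allogeneic libraries were below all syngeneic ones, and the log2 fold change was -0.96 ± 0.14 (SE, edgeR adjusted p = 0.00018). The loading factor Cdc6 lay at 6.56, 7.84 and 4.74 CPM in allogeneic skin, against 12.6, 12.0, 9.84 and 12.6 CPM in syngeneic skin, again without overlap (-0.88 ± 0.22, edgeR adjusted p = 0.0077). Its partner Cdt1 fell (-0.58 ± 0.21, edgeR adjusted p = 0.045), as did Cdc45 (-0.76 ± 0.19, edgeR adjusted p = 0.0084).
Of the MCM helicase subunits, Mcm7, Mcm5 and Mcm2 fell, by 0.77 ± 0.18, 0.78 ± 0.25 and 0.68 ± 0.24 on the log2 scale (edgeR adjusted p = 0.005, 0.031 and 0.045). Mcm3, Mcm4 and Mcm6 did not pass, at -0.42, -0.17 and -0.57. Uhrf1, which reads half-methylated DNA behind the fork, lay at 37.4, 36.8 and 25.4 CPM in allogeneic skin, against 88.6, 65.6, 77.6 and 75.1 CPM in syngeneic skin. Allogeneic library 3 was lowest, and all allogeneic libraries were below the syngeneic ones (-1.21 ± 0.27, edgeR adjusted p = 0.0038).
The thymidine enzymes Tyms and Tk1 fell (-0.84 and -0.65, edgeR adjusted p = 0.016 and 0.034). Pcna (-0.49 ± 0.18, edgeR adjusted p = 0.057), the S phase cyclin Ccne1 (-0.50 ± 0.25, 0.16) and the large subunit of ribonucleotide reductase Rrm1 (-0.50 ± 0.19, 0.064) did not pass. Rrm2, the small subunit, was the exception in sign at 0.33 ± 0.27 (edgeR adjusted p = 0.39).

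Among mitotic members, Kif23, a motor of the central spindle in cytokinesis, lay at 16.2, 15.6 and 13.9 CPM in allogeneic skin, against 48.4, 35.6, 31.4 and 40.4 CPM in syngeneic skin. Its libraries did not overlap (-1.35 ± 0.29, edgeR adjusted p = 0.0028). Foxm1, the transcription factor of mitotic genes, the cyclin Ccna2, the kinetochore gene Cenpf and Aurkb, a kinase of the chromosomal passenger complex, also fell, with log2 fold changes of -1.06, -0.98, -1.16 and -0.83 (edgeR adjusted p = 0.016, 0.024, 0.041 and 0.048).
Mki67, which coats mitotic chromosomes and is the usual marker of cycling cells, lay at 198.5, 82.4 and 133.0 CPM in allogeneic skin, against 397.3, 276.3, 235.7 and 226.4 CPM in syngeneic skin. All allogeneic libraries were below all syngeneic libraries, yet the spread within groups was wide and the test was not passed (-1.04 ± 0.42, edgeR adjusted p = 0.076). Top2a, the topoisomerase that untangles chromosomes (-0.63 ± 0.27, 0.088), Cdk1, the mitotic kinase (-0.53 ± 0.30, 0.21), and its cyclin Ccnb1 (-0.51 ± 0.34, 0.28) did not pass either. For these genes allogeneic library 1 reached the syngeneic range, as with Cdk1 at 40.8, 19.9 and 16.5 CPM in allogeneic skin, against 35.7, 37.1, 35.8 and 39.9 CPM in syngeneic skin.
The count of members that fell rested on single libraries. It was 24 without allogeneic library 1 (9 replication, 15 mitotic), 3 without allogeneic library 3 and 8 or 9 without allogeneic 2 or syngeneic 1, 2 or 4, against 15 with all libraries. Gins2 and Kif23 passed in every fit that was run.

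Whether Wnt-C59 changed these genes in diseased skin was asked by comparing it with allogeneic vehicle skin. The medians of the classes went opposite ways. Of 17 replication members 7 rose (41.2%, against 24.6% of all genes up) and 1 fell, and of 23 mitotic members 12 fell (52.2%, against 26.2% of all genes down) and 0 rose. Medians on the log2 scale were 0.41 for replication and -0.92 for mitotic members, beside 0.00 over all genes. In sign, 12 replication members lay above 0 and 5 below, and 3 mitotic members lay above 0 and 20 below. Wnt-C59 libraries lay above all allogeneic libraries for 8 of 17 replication members (26.4% of all genes) and below them for 13 of 23 mitotic members (27.1% of all genes).

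The members that rose were Gins2, Cdt1, Mcm7, Mcm2, Mcm5, Cdc45 and Mcm3. Gins2 lay at 90.3, 87.9, 102.9 and 80.8 CPM in Wnt-C59 skin, against 25.7, 28.7 and 23.3 CPM in allogeneic skin, a log2 fold change of 1.81 ± 0.14 (edgeR adjusted p = 1.5e-06). Cdt1 lay at 36.9, 36.5, 39.7 and 25 CPM in Wnt-C59 skin, against 13.7, 14.2 and 12.0 CPM in allogeneic skin (1.38 ± 0.21, edgeR adjusted p = 0.00013). In both genes every Wnt-C59 library exceeded every allogeneic library, with library 5 lowest of its group.
Mcm7 rose (1.01 ± 0.18, edgeR adjusted p = 0.00039), as did Mcm2 (1.00 ± 0.24, 0.0035), Mcm5 (1.01 ± 0.25, 0.0044), Cdc45 (0.65 ± 0.19, 0.011) and Mcm3 (0.58 ± 0.22, 0.041). Mcm6 (0.48 ± 0.23), Mcm4 (-0.18 ± 0.24) and Cdc6 (-0.18 ± 0.22) did not pass.
Of the nucleotide enzymes, Rrm2 lay at 34.2, 27.4, 24.9 and 27.7 CPM in Wnt-C59 skin, against 89.7, 45.9 and 48.9 CPM in allogeneic skin. All Wnt-C59 libraries were below all allogeneic ones, and the gene fell (-1.11 ± 0.27, edgeR adjusted p = 0.0039). Rrm1, Tk1 and Tyms had log2 fold changes of -0.31, 0.02 and 0.40, none past the test, and neither Pcna (0.33 ± 0.18, edgeR adjusted p = 0.14), Uhrf1 (0.41 ± 0.26, 0.21) nor Ccne1 (-0.23 ± 0.25, 0.48) passed.

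**Figure D3:**
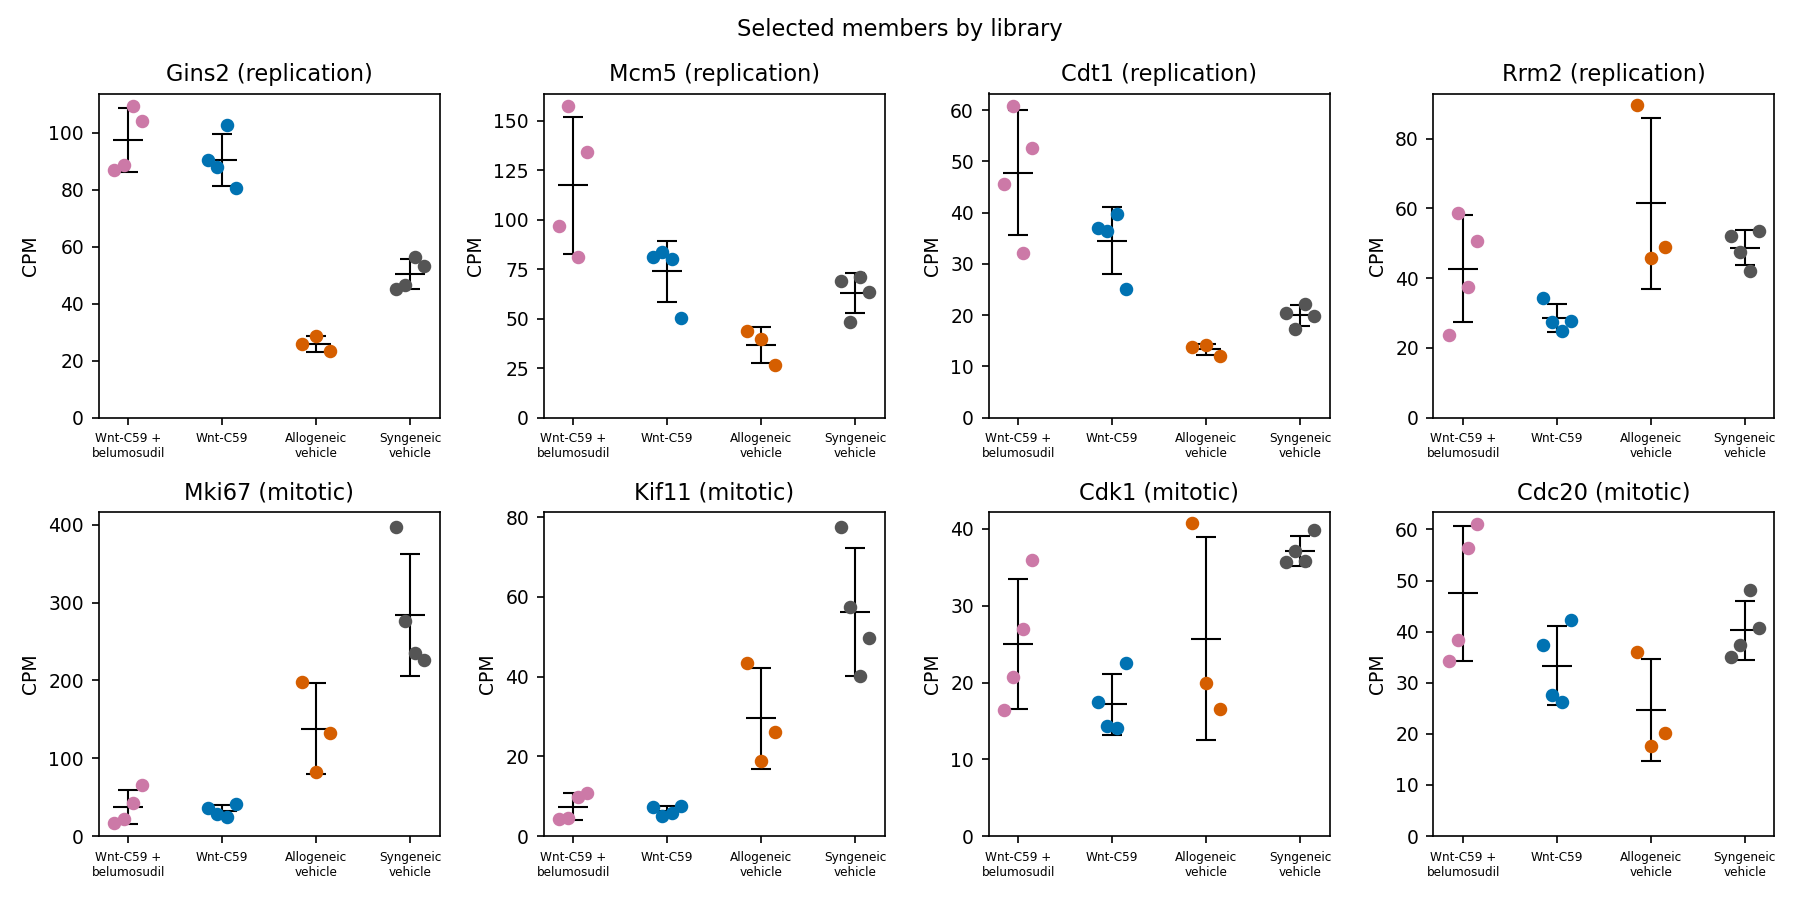
CPM of 4 replication members (top) and 4 mitotic members (bottom) by group, on linear axes that start at 0. Points are libraries and bars are mean ± SD. Gins2 and Cdt1 are higher in every treated library than in any vehicle library, while Mki67 and Kif11 are lower in every treated library than in any vehicle library.

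Among mitotic members, Cenpe, Kif11, Bub1 and Mki67 had the lowest log2 fold changes. Kif11, the motor that pushes spindle poles apart, lay at 7.23, 5.01, 5.78 and 7.60 CPM in Wnt-C59 skin, against 43.5, 18.9 and 26.2 CPM in allogeneic skin (-2.20 ± 0.36, edgeR adjusted p = 0.00021). Cenpe, the kinetochore motor, lay at 6.00, 3.07, 2.97 and 5.61 CPM in Wnt-C59 skin, against 38.3, 14.1 and 22.3 CPM in allogeneic skin (-2.49 ± 0.42, edgeR adjusted p = 0.0003). Neither gene had overlapping libraries, and allogeneic library 1 was the highest.
Mki67 lay at 35.9, 28.0, 24.0 and 41.0 CPM in Wnt-C59 skin, against 198.5, 82.4 and 133.0 CPM in allogeneic skin (-2.10 ± 0.41, edgeR adjusted p = 0.00091). Top2a lay at 44.8, 37.8, 32.4 and 45.9 CPM in Wnt-C59 skin, against 149.1, 83.4 and 92.9 CPM in allogeneic skin (-1.43 ± 0.26, edgeR adjusted p = 0.00047). Both were lower in every Wnt-C59 library than in any allogeneic library.
The checkpoint kinase Bub1 fell by 2.14 ± 0.44 on the log2 scale, the spindle-associated Nusap1 by 1.38 ± 0.36 and the midzone bundler Prc1 by 0.98 ± 0.26 (edgeR adjusted p = 0.0011, 0.0055 and 0.0057). Birc5 (survivin, a passenger complex subunit), Cenpf, Tpx2 (a spindle assembly factor), Ccnb1 and the checkpoint kinase Bub1b fell by 0.92 to 1.33, with edgeR adjusted p between 0.0065 and 0.036.
The remaining 11 did not pass. They include Cdk1, at 17.5, 14.4, 14.1 and 22.6 CPM in Wnt-C59 skin, against 40.8, 19.9 and 16.5 CPM in allogeneic skin (-0.59 ± 0.30, edgeR adjusted p = 0.12). The libraries overlapped there. Kif23 (-0.52), Foxm1 (-0.43), Ccna2 (-0.64), Ccnb2 (a second B-type cyclin, -0.52), Aurka (a spindle pole kinase, -0.45), Kif20a (a cytokinesis motor, -0.32) and Ube2c (the ubiquitin donor of the mitotic ligase, -0.59) lay below 0, while Cdc20 lay at 0.44, the polo kinase Plk1 at 0.18 and Aurkb at 0.00.
Left-out libraries moved the 7 rises to between 5 and 8 and the 13 falls to between 9 and 13. In either direction 50.8% of all genes changed. Mcm3 lost its call without allogeneic 1 or 3 or Wnt-C59 1, 2 or 4, and Cdc45 lost its call without allogeneic 3. Bub1b lost its call without allogeneic 1 or 3 or Wnt-C59 2, 4 or 5, Ccnb1 without allogeneic 1 or Wnt-C59 2 or 4, Tpx2 without allogeneic 1 or Wnt-C59 4, and Birc5 without allogeneic 1. With the adipocyte marker level as a covariate, 3 members rose (Cdt1, Mcm7 and Gins2) and 0 fell past the test. The log2 fold changes of Mki67, Cenpe, Kif11 and Top2a were then -1.65 ± 0.84, -1.88 ± 0.85, -1.44 ± 0.66 and -1.17 ± 0.50, with standard errors wider than without it. Adipocyte markers summed to 1117 to 3631 CPM in Wnt-C59 skin, against 452.9 to 1024 CPM in allogeneic skin. Of these markers 9 of 10 were up (90.0%, against 24.6% of all genes), and their part in the result was not tested beyond this fit. Hair follicle markers summed to 3292 to 5519 CPM in Wnt-C59 skin, against 108.9 to 230.5 CPM in allogeneic skin. Of 17 tested 2 were up (11.8%, against 24.6% of all genes) and 0 down, and their part was not tested.

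Adding belumosudil to Wnt-C59 gave a second treated group, compared with the same 3 allogeneic libraries, so its results are not independent of those above. Of 17 replication members 12 rose (70.6%, against 27.1% of all genes up) and 0 fell. Of 23 mitotic members 9 fell (39.1%, against 27.4% of all genes down) and 2 rose. In either direction 54.5% of all genes changed. Median log2 fold changes were 0.88 and -0.40, beside 0.01 over all genes. The combination libraries lay above all allogeneic libraries for 10 of 17 replication members (25.6% of all genes) and below them for 5 of 23 mitotic members (26.4% of all genes).

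Gins2 lay at 87.0, 88.6, 109.5 and 104.2 CPM in combination skin, against 25.7, 28.7 and 23.3 CPM in allogeneic skin (1.91 ± 0.14, edgeR adjusted p = 9.4e-07). Cdt1 lay at 45.6, 60.8, 32.1 and 52.6 CPM in combination skin, against 13.7, 14.2 and 12.0 CPM in allogeneic skin (1.84 ± 0.21, edgeR adjusted p = 1.3e-05). Mcm5 lay at 97.0, 157.3, 81.4 and 134.3 CPM in combination skin, against 43.9, 39.8 and 26.4 CPM in allogeneic skin (1.68 ± 0.26, edgeR adjusted p = 0.00011). In each of these genes the lowest combination library exceeded the highest allogeneic library.
Mcm7 (1.55 ± 0.18, edgeR adjusted p = 1.4e-05), Mcm2 (1.49 ± 0.25, 0.00019), Cdc45 (1.10 ± 0.19, 0.00029), Mcm3 (1.07 ± 0.22, 0.0011) and Mcm6 (0.84 ± 0.23, 0.0065) rose too. Pcna averaged 144.9 ± 32.9 CPM in combination skin and 87.8 ± 17.7 CPM in allogeneic skin (SD, n = 4 and 3) and rose (0.72 ± 0.19, edgeR adjusted p = 0.0044). Tyms (0.90), Uhrf1 (0.88) and Ccne1 (0.64 ± 0.26) rose with edgeR adjusted p = 0.005, 0.012 and 0.045. Of the licensing factors Cdc6 did not pass (0.32 ± 0.22), and neither did Mcm4, Tk1, Rrm1 or Rrm2, at 0.14, 0.41, -0.26 and -0.53.

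Of the mitotic members, Kif11 lay at 4.34, 4.47, 9.78 and 10.7 CPM in combination skin, against 43.5, 18.9 and 26.2 CPM in allogeneic skin (-2.01 ± 0.36, edgeR adjusted p = 0.00032). Mki67 lay at 17.4, 22.5, 42.0 and 65.3 CPM in combination skin, against 198.5, 82.4 and 133.0 CPM in allogeneic skin (-1.91 ± 0.41, edgeR adjusted p = 0.0015). Neither overlapped, and combination libraries 4 and 5 were the upper pair in both.
Cenpe, Nusap1 and Bub1 fell by 2.28 ± 0.42, 1.67 ± 0.36 and 1.59 ± 0.43 on the log2 scale (edgeR adjusted p = 0.00046, 0.0014 and 0.0064). Top2a (-1.04 ± 0.26), Cenpf (-1.16 ± 0.39), Prc1 (-0.76 ± 0.26) and Birc5 (-0.82 ± 0.32) fell with edgeR adjusted p = 0.0038, 0.02, 0.022 and 0.041.
Cdc20 lay at 34.3, 38.3, 56.3 and 61.1 CPM in combination skin, against 36.0, 17.6 and 20.2 CPM in allogeneic skin, and rose (0.95 ± 0.27, edgeR adjusted p = 0.009). Plk1 lay at 14.3, 15.3, 26.6 and 31.4 CPM in combination skin, against 16.9, 10.8 and 10.4 CPM in allogeneic skin, and rose (0.79 ± 0.29, edgeR adjusted p = 0.033). Both genes overlapped between groups, with combination libraries 4 and 5 highest.
Cdk1 (-0.04 ± 0.30), Ccnb1 (-0.40 ± 0.33), Ccna2 (-0.30), Ccnb2 (0.05), Foxm1 (-0.13), Aurka (0.12), Aurkb (0.56), Bub1b (-0.50), Kif20a (0.08), Kif23 (-0.30), Tpx2 (-0.71) and Ube2c (-0.14) did not pass.
Without combination libraries 4 and 5, which had the most hair follicle signal of their group, 11 replication members rose, 15 mitotic members fell and 0 mitotic members rose. Cdc20 was then at 0.57 ± 0.30 (edgeR adjusted p = 0.14), Plk1 at 0.23 ± 0.28 (0.51) and Mki67 at -2.78 ± 0.39 (0.00014). Hair follicle markers summed to 2424 to 46878 CPM in combination skin, against 108.9 to 230.5 CPM in allogeneic skin. Of 17 tested 16 were up (94.1%, against 27.1% of all genes), with Krt33a at 0 in every allogeneic library. Without allogeneic library 1, 5 mitotic members fell in place of 9, since Birc5, Cenpf, Bub1 and Prc1 lost their calls. Ccne1 lost its call without allogeneic 2 or 3 or combination 3 or 5, Cdc20 without allogeneic 2 or 3, Plk1 without those or combination 4 or 5, and Uhrf1 without allogeneic 3. Birc5 lost its call without combination 2, 3 or 4, Prc1 without combination 2 or 3, and Cenpf without allogeneic 3 or combination 3. With the adipocyte covariate 5 members rose (Mcm2, Mcm5, Cdt1, Mcm7 and Gins2) and 0 fell past the test. Nusap1, Cenpe, Mki67 and Kif11 were then at -1.94 ± 0.78, -1.59 ± 0.92, -1.40 ± 0.91 and -1.12 ± 0.72, again with wider standard errors. Adipocyte markers summed to 2722 to 3600 CPM in combination skin, against 452.9 to 1024 CPM in allogeneic skin. Of these markers 10 of 10 were up, against 27.1% of all genes.

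**Figure D4:**
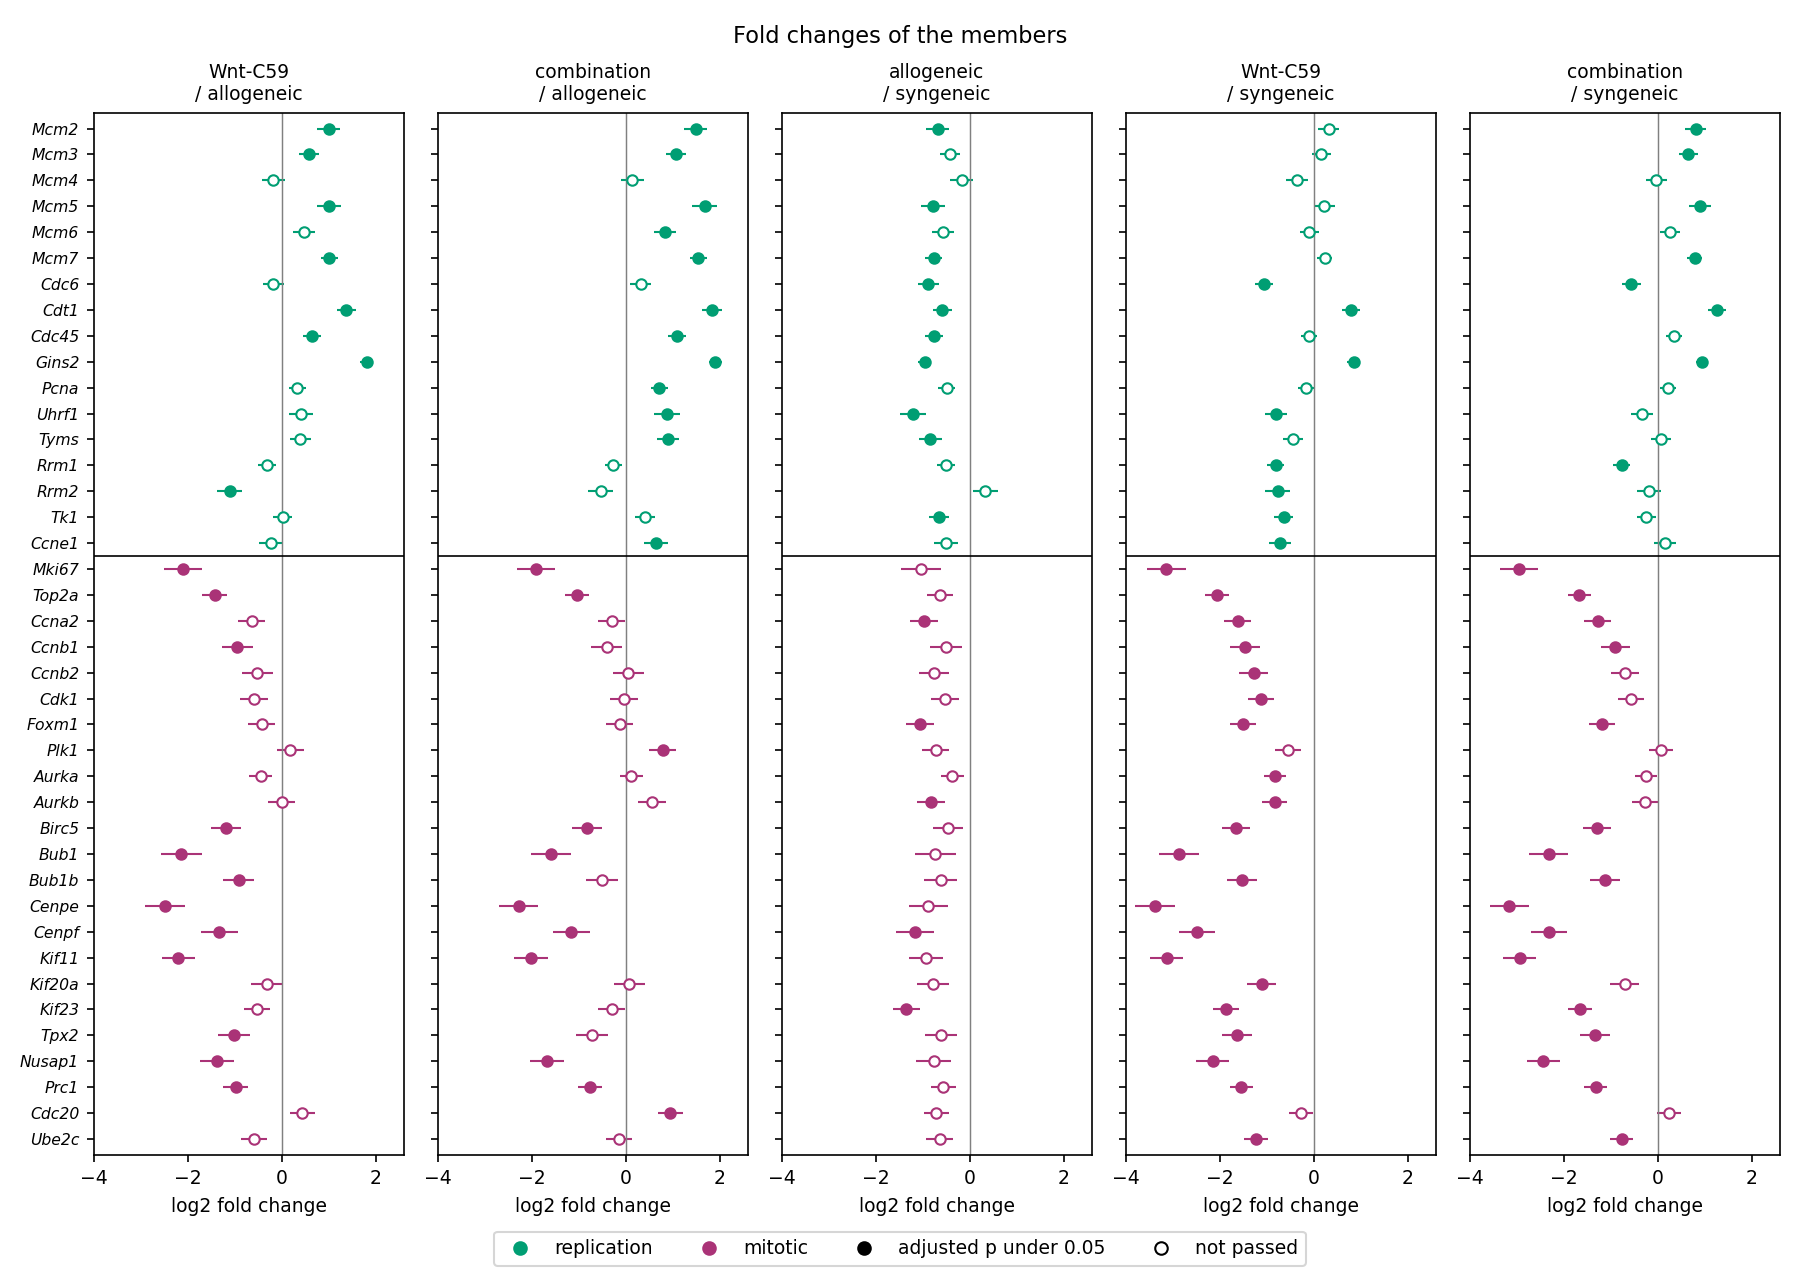
Log2 fold change ± SE (edgeR) of each member in 5 comparisons, replication members above the line and mitotic members below it. Filled points have an adjusted p under 0.05 and open points did not pass. In the panels against syngeneic skin 21 (Wnt-C59) and 16 (combination) of 23 mitotic members are filled left of 0, and in the panel of allogeneic against syngeneic skin 39 of 40 points lie left of 0.

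Set against syngeneic skin, treated skin had fewer mitotic transcripts, while replication transcripts were spread around the syngeneic level. With Wnt-C59, 21 of 23 mitotic members fell (91.3%, against 27.0% of all genes down) and 0 rose. Of replication members 6 fell (35.3%) and 2 rose (11.8%, against 26.0% of all genes up). With the combination, 16 of 23 mitotic members fell (69.6%, against 27.2%) and 0 rose, and 2 of 17 replication members fell and 6 rose (35.3%, against 26.9% of all genes up). In either direction 53.1% of all genes changed with Wnt-C59 and 54.1% with the combination. Median log2 fold changes of mitotic members were -1.54 with Wnt-C59 and -1.28 with the combination, and those of replication members -0.16 and 0.23, beside 0.04 and 0.01 over all genes. Both comparisons use the same 4 syngeneic libraries.

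Mki67 averaged 36.8 ± 21.7 CPM in combination skin, 32.2 ± 7.66 CPM in Wnt-C59 skin and 283.9 ± 78.6 CPM in syngeneic skin (SD, n = 4 each), with no overlap between treated and syngeneic libraries. Its log2 fold change from syngeneic was -2.95 ± 0.41 with the combination (edgeR adjusted p = 5.9e-05) and -3.14 ± 0.41 with Wnt-C59 (edgeR adjusted p = 5.5e-05). Kif11 averaged 7.33 ± 3.39, 6.41 ± 1.22 and 56.2 ± 16.0 CPM in combination, Wnt-C59 and syngeneic skin (-2.94 ± 0.35 and -3.13 ± 0.35, edgeR adjusted p = 1.9e-05 and 2.1e-05). Cenpe fell by 3.16 ± 0.42 with the combination and 3.38 ± 0.42 with Wnt-C59 (edgeR adjusted p = 3.6e-05 and 3.7e-05), and Top2a by 1.67 ± 0.25 and 2.06 ± 0.25 (edgeR adjusted p = 8.6e-05 and 2.9e-05). Nusap1 fell by 2.44 and 2.15. The mitotic members that did not pass with Wnt-C59 were Cdc20 (-0.27 ± 0.25, edgeR adjusted p = 0.37) and Plk1 (-0.55 ± 0.27, 0.096). With the combination these were Cdc20, Plk1, Aurka, Aurkb, Cdk1, Ccnb2 and Kif20a, between -0.70 and 0.24.
Of the replication members, Gins2 and Cdt1 rose above syngeneic skin in both treated groups. Gins2 averaged 97.3 ± 11.2 CPM in combination skin, 90.5 ± 9.22 CPM in Wnt-C59 skin and 50.3 ± 5.27 CPM in syngeneic skin (SD, n = 4 each), log2 fold changes of 0.95 ± 0.13 and 0.85 ± 0.13 (edgeR adjusted p = 3.2e-05 and 9.9e-05). Cdt1 rose by 1.26 ± 0.19 and 0.79 ± 0.19 (edgeR adjusted p = 8.9e-05 and 0.0028). Mcm5, Mcm2, Mcm7 and Mcm3 rose with the combination by 0.90, 0.81, 0.79 and 0.65 and did not pass with Wnt-C59, at 0.23, 0.32, 0.24 and 0.16.
Cdc6 fell in both treated groups, at -0.56 ± 0.20 with the combination and -1.06 ± 0.20 with Wnt-C59 (edgeR adjusted p = 0.027 and 0.00059), and so did Rrm1, at -0.77 and -0.81 (edgeR adjusted p = 0.0023 and 0.0018). Rrm1 did not pass with the GC trend removed (-0.23 and -0.33, edgeR adjusted p = 0.26 and 0.099). Uhrf1, Rrm2, Tk1 and Ccne1 fell with Wnt-C59, by 0.80, 0.77, 0.64 and 0.72. The loading factors Cdc6 and Cdt1, which act at the same step, moved in opposite directions, though Cdt1 did not pass with Wnt-C59 once the GC trend was removed. With the combination, Cdc6 did not pass with GC and length trends removed (-0.30, edgeR adjusted p = 0.26) or with the adipocyte covariate (-0.57, 0.089). Whether members passed in one treated group only was not tested as a difference except in the comparison of both groups that follows.
Across all fits that were run, Uhrf1, Cdc6 and Gins2 and 20 mitotic members kept their call with Wnt-C59, and Cdt1, Gins2 and 13 mitotic members kept it with the combination. Left-out libraries ended the calls of Ccne1, Rrm2 and Aurkb with Wnt-C59 (without Wnt-C59 4, syngeneic 1 or syngeneic 4), and of Ube2c, Cdc6, Ccnb1 and Mcm3 with the combination (without combination 2 or 3 or syngeneic 1, 2 or 4). Hair follicle markers were lower in Wnt-C59 skin (3292 to 5519 CPM) than in syngeneic skin (9005 to 27138 CPM). With Wnt-C59 15 of 17 were down (88.2%, against 27.0% of all genes) and 1 up. In combination skin 1 of 17 was down (5.88%, against 27.2% of all genes) and 0 up. Without combination libraries 4 and 5, which leaves the libraries at 2466 and 2424 CPM of these markers, 21 mitotic members fell and their median was -1.76. The part of these markers in the fall of mitotic members was not tested.

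The comparison of the combination with Wnt-C59 alone asks what belumosudil added. No member passed edgeR's test at an adjusted p under 0.05, where 0.102% of all genes rose and 0.129% fell. Log2 fold changes were above 0 for all 17 replication and 22 of 23 mitotic members, with medians of 0.47 and 0.39 beside -0.01 over all genes. Of the alternatives, limma-voom called 0 members, and DESeq2 called 2 (Ccne1, adjusted p = 0.013, and Mcm7, adjusted p = 0.025).
Mcm7 lay at 103.3, 145.0, 97.7 and 135.0 CPM in combination skin, against 87.3, 88.3, 88.6 and 64.9 CPM in Wnt-C59 skin (0.55 ± 0.16, edgeR adjusted p = 0.10). It was the only member without overlap, where 5.81% of all genes lay above and 7.28% below without overlap. Ccne1 lay at 6.01, 14.1, 8.25 and 10.9 CPM in combination skin, against 6.15, 5.06, 4.58 and 5.70 CPM in Wnt-C59 skin (0.87 ± 0.23, edgeR adjusted p = 0.088). Combination library 2 fell within the Wnt-C59 range.
Of the mitotic members, Aurka was at 0.57 ± 0.23 and Plk1 at 0.61 ± 0.27 (edgeR adjusted p = 0.18 and 0.21), and only Nusap1 lay below 0 (-0.29 ± 0.34). Without combination libraries 4 and 5 the median of the mitotic members was -0.26 and that of the replication members 0.49, so the sign of the mitotic median rested on those libraries and that of the replication median did not.

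The fold changes of treated against vehicle skin followed base composition, across all genes and among the members. Over 18227 genes with a value, log2 values of Wnt-C59 over allogeneic skin had a Spearman rho of 0.504 with GC content of the longest transcript and -0.251 with its length. Among the 23 mitotic members, rho was 0.84 with GC content and -0.63 with length, and among the 17 replication members 0.64 and 0.00 (a correlation across genes of the same libraries, given as a description). For the combination against allogeneic skin rho with GC content was 0.84 among mitotic and 0.69 among replication members. Median GC content was 51.7% for replication members (43.3% to 57.8%) and 47.4% for mitotic members (41.0% to 56.0%). Kif11, Cenpe and Bub1, which fell furthest beside Mki67, have 42.19%, 42.95% and 41.04% GC, while Cdc20 and Plk1 have 55.61% and 55.98%.

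The distance between the classes was also computed with that trend taken out of each library. The median of replication members minus that of mitotic members was 1.33 for Wnt-C59 against allogeneic skin on the log2 scale, 1.29 with the GC trend removed and 1.19 with GC and length trends removed. For the combination against allogeneic skin it was 1.28, 1.41 and 1.08, and against syngeneic skin it was 1.51, 1.46 and 1.27 for the combination and 1.38, 1.43 and 1.33 for Wnt-C59. For allogeneic against syngeneic skin it was 0.08, 0.13 and 0.11. Single members moved more. With the GC trend removed, Kif11 was at -1.48 ± 0.31 and Mki67 at -1.83 ± 0.39 in Wnt-C59 against allogeneic skin (edgeR adjusted p = 0.0018 and 0.0026), and Gins2 at 1.42 ± 0.13 (7e-06) but Cdt1 only at 0.68 ± 0.20 (0.016). Pcna (0.74), Tyms (0.66) and Mcm6 (0.67) rose past the test in that fit, and Mcm3 did not pass (0.26). Of the mitotic falls, Nusap1 (-0.65 ± 0.31, edgeR adjusted p = 0.10), Prc1 (-0.37 ± 0.22, 0.20), Cenpf (-0.73 ± 0.34, 0.11) and Ccnb1 (-0.43 ± 0.30, 0.26) lost their calls there. Ube2c (-1.12), Foxm1 (-0.90) and Aurka (-0.67) fell past the test in that fit. No mitotic fall of Wnt-C59 against allogeneic skin passed in every fit that was run.
For the combination against allogeneic skin, 5 mitotic members fell with the GC trend removed (Kif11, Cenpe, Mki67, Nusap1 and Ube2c), and Cdc20 (0.31 ± 0.29) and Plk1 (0.14 ± 0.32) did not pass. For Wnt-C59 against syngeneic skin 22 mitotic members fell, and Cdt1 no longer passed (0.26 ± 0.18, edgeR adjusted p = 0.26). Against syngeneic skin 4 members rose with the combination (Gins2, Cdt1, Mcm5 and Pcna, at 0.55, 0.64, 0.62 and 0.57), and Mcm2, Mcm3 and Mcm7 did not pass.
With GC and length trends removed together, further calls changed. In Wnt-C59 against allogeneic skin Mki67 was at -1.17 ± 0.37 and Top2a at -0.60 ± 0.21 (edgeR adjusted p = 0.025 and 0.04), and Cenpf, at -0.04 ± 0.33, again did not pass. In combination against allogeneic skin Mki67 (-0.84 ± 0.37, edgeR adjusted p = 0.088) lost its call and Top2a (-0.08 ± 0.22, 0.79) again did not pass. Kif11, Cenpe, Nusap1 and Ube2c fell, by 0.99, 0.96, 0.95 and 0.95.

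**Figure D5:**
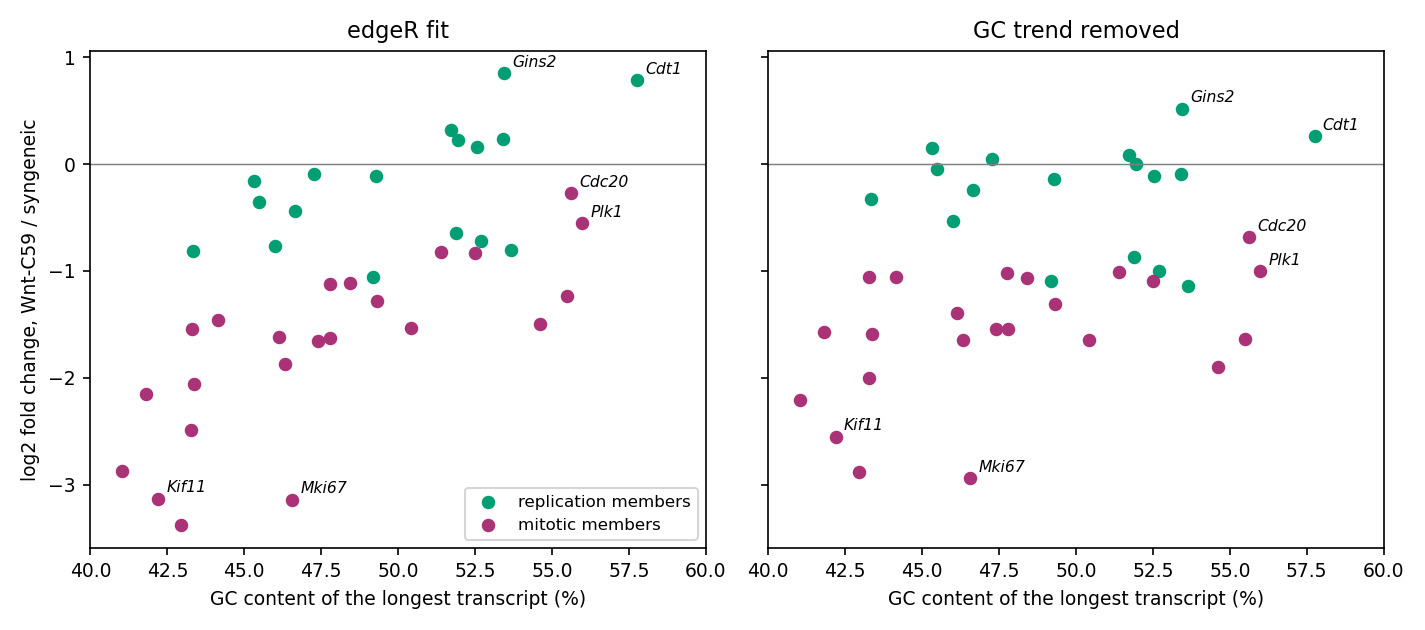
Log2 fold change of Wnt-C59 over syngeneic skin against GC content of the longest transcript (%), for the 17 replication and 23 mitotic members, in the edgeR fit (left) and with each library's GC trend removed (right). In both panels the lowest points are mitotic, as with Kif11 (-3.13 and -2.55) and Mki67 (-3.14 and -2.94), and the classes overlap, as with Cdc20 (-0.27 and -0.68) and Uhrf1 (-0.80 in the edgeR fit).

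Further genes of both phases, from lists of textbook members, were counted likewise. Of 24 other replication genes, 7 rose and 2 fell with Wnt-C59 against allogeneic skin, and 8 rose and 1 fell with the combination. The rises are 29.2% and 33.3% of the list, near the 24.6% and 27.1% of all genes that rose. The median log2 fold change of the list was 0.02 with Wnt-C59 (12 above 0 and 12 below). It was 0.27 with the combination (17 above 0 and 7 below). Fen1, which trims Okazaki fragments, rose in both (0.83 ± 0.16 and 1.38 ± 0.16, edgeR adjusted p = 0.00063 and 1.4e-05), as did Pold1, the catalytic subunit of polymerase delta (1.36 and 1.55). Pola1, the catalytic subunit of polymerase alpha, named after its values were seen, fell (-1.02 and -0.95, edgeR adjusted p = 0.0054 and 0.0073).
Of 30 other mitotic genes, 13 fell and 0 rose with Wnt-C59 against allogeneic skin, and 10 fell and 0 rose with the combination. The falls are 43.3% and 33.3% of the list, against 26.2% and 27.4% of all genes, so the share with the combination was near that of all genes. Smc2 and Smc4, the condensin core, fell by 2.20 and 1.71 with Wnt-C59 and by 1.93 and 1.95 with the combination. Ect2, which triggers cytokinesis, fell by 2.00 and 2.05 (edgeR adjusted p of 0.00025 or lower for each of these genes). GC content is 39.66%, 40.2%, 40.19% and 41.47% for Smc2, Smc4, Ect2 and Pola1, and 53.81% and 61.01% for Fen1 and Pold1. Their fold changes against allogeneic skin stand under the same relation with GC content as those of the members. Against syngeneic skin all 30 fell with Wnt-C59 and 24 with the combination. Of the 24 other replication genes 14 fell and 0 rose with Wnt-C59, and 11 fell and 3 rose with the combination. Of all genes, 27.0% fell and 26.0% rose with Wnt-C59 there, and 27.2% fell and 26.9% rose with the combination. In allogeneic against syngeneic skin, 12 of 24 replication and 8 of 30 mitotic genes fell, where 15.1% of all genes fell. The list genes that fell include Dut, which removes uracil nucleotides (-1.21 ± 0.23, edgeR adjusted p = 0.0012), and Espl1 (separase, -1.28 ± 0.25, 0.0017).

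Markers of other cell types moved with these groups as well. T cell markers summed to 47.6 to 89.4 CPM in combination skin, 38.4 to 61.2 CPM in Wnt-C59 skin, 80.8 to 124.8 CPM in allogeneic skin and 11.5 to 17.1 CPM in syngeneic skin. All 10 were up in allogeneic against syngeneic skin, where 14.6% of all genes were up. Against allogeneic skin 8 of 10 were down with Wnt-C59 (26.2% of all genes) and 4 of 10 with the combination (27.4% of all genes). In both of these comparisons 0 were up. Basal keratinocyte markers summed to 17937 to 29841 CPM in combination skin, 17700 to 22781 CPM in Wnt-C59 skin, 13244 to 18494 CPM in allogeneic skin and 5814 to 9313 CPM in syngeneic skin. The 8 basal keratinocyte genes were split. In combination against allogeneic skin 2 were up and 3 down, where 27.1% of all genes were up and 27.4% down. In Wnt-C59 against allogeneic skin 4 were up and 2 down, where 24.6% of all genes were up and 26.2% down. Sebaceous gland markers summed to 2625 to 4103 CPM in combination skin, 2701 to 9810 CPM in Wnt-C59 skin, 386.2 to 2038 CPM in allogeneic skin and 2462 to 3290 CPM in syngeneic skin. Macrophage markers summed to 1268 to 2405 CPM in combination skin, 1058 to 1706 CPM in Wnt-C59 skin, 3514 to 4799 CPM in allogeneic skin and 453.2 to 837.4 CPM in syngeneic skin. In allogeneic against syngeneic skin 8 of 9 were up (88.9%, against 14.6% of all genes). Against allogeneic skin 7 of 9 were down in combination skin (77.8%, against 27.4%) and 9 of 9 in Wnt-C59 skin (against 26.2%). Activated epidermis markers summed to 5185 to 20158 CPM in combination skin, 2752 to 5692 CPM in Wnt-C59 skin, 10136 to 21675 CPM in allogeneic skin and 1314 to 3113 CPM in syngeneic skin. None of these 5 lists had a marker at 0 in all libraries of a group, and their part in the levels of the members was not tested.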

How the data were processed

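The members and gene lists were chosen with earlier results of these data known. The authors deposited estimated counts per gene (not scaled, with fractions) for 15 libraries under Ensembl identifiers, per the file headers. The submitters' processing notes name FastQC, Trim Galore, HISAT2 and featureCounts and build GRCm39. Annotation, versions and strand setting are not given in the sources used here, so overlapping and antisense genes are uncertain. Libraries of the combination were matched by elimination, and column numbers of treated libraries are not those of the sample titles.

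The estimated counts were rounded, where whole counts had been planned for, and fitted with edgeR 4.0.16 in R 4.3.3 (TMM scaling, filterByExpr, robust quasi-likelihood, group as the only term, 15 libraries, 18651 genes). A gene was called at a Benjamini-Hochberg adjusted p under 0.05 over all genes of its comparison. The comparisons were 6 in number. Treated libraries held 18.99 M to 28.78 M counts (M, mega) and vehicle libraries 16.26 M to 20.39 M. CPM uses TMM-scaled library sizes, and the mean log2 CPM of a class weights its members equally, with no pseudocount. Symbols, GC content and longest transcript came from GENCODE M21 (build GRCm38), which matched 91.5% of identifiers and 203 of 205 list genes, and promoters from RefSeq (GRCm38.p6). No coordinates were converted between builds. All 40 members are accounted for. The rule named, per comparison and class, the 4 called members with the smallest adjusted p (2 by p where none was called), then Mki67, Top2a, Cdk1, Ccnb1, Mcm2, Pcna and Ccne1 in the comparisons among vehicle groups and against allogeneic skin, the extremes of level per length, and up to 3 called genes of each further list, of which the text gives a selection. Alternatives were DESeq2 1.42.0 and its size factors, limma-voom (limma 3.58.1), no filter, only the groups compared, GC (and length) trends removed, an adipocyte covariate, a replicate block and each library left out. The code was tested on simulated data.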

Additional observations from a re-analysis of the deposited data

Results flagged for a closer look

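Within groups of 4 libraries, 4 values of members stood far from the other 3 libraries by Dixon's test, out of 129 groups of values examined. Chance alone marks about 1 in 20, so the number flagged was no more than chance gives. The helicase subunits Mcm5 and Mcm7 were low in Wnt-C59 library 5, at 50.5 CPM beside 80.1 to 83.8 CPM and at 64.9 CPM beside 87.3 to 88.6 CPM. Mcm4, another subunit, was high in syngeneic library 1 at 60.5 CPM beside 44.3 to 46.6 CPM. The cyclin Ccne1 was high in syngeneic library 3 at 10.1 CPM beside 8.35 to 8.53 CPM.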

How the results depend on the processing

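Limits first: groups of 3 or 4 libraries, treated and vehicle libraries that differ in base composition, and combination libraries 4 and 5 that differ from 2 and 3. Of the counts of called members and class differences under alternatives other than leaving a library out, 140 stayed within 1.5 times the reported count or 1 SD of the reported difference and 16 moved further. For allogeneic against syngeneic skin the 15 falls became 3 with the adipocyte covariate (with wider standard errors, as in Foxm1 at -1.33 ± 0.45 and Uhrf1 at -1.18 ± 0.38) and 8 with the replicate block, and 3 to 24 with a library left out. Same-numbered vehicle libraries did not deviate together over all tested genes (correlations -0.065, -0.091 and -0.030). Such a check could miss a pairing with a small effect or one in few genes, so whether the numbers pair libraries stays undecided. No paired analysis was possible for treated groups because their columns carry other numbers than the titles. For Wnt-C59 against allogeneic skin the adipocyte covariate gave 3 rises and 0 falls. For the combination against allogeneic skin it gave 5 rises and 0 falls. There the falls were 5 with the GC trend removed, 4 with GC and length trends removed, 15 without combination libraries 4 and 5, and 5 to 10 with a library left out. Without libraries 4 and 5 the class difference was 1.89 against allogeneic, 2.09 against syngeneic and 0.76 against Wnt-C59 skin. DESeq2 gave 2 rises for the combination against Wnt-C59. Against syngeneic skin the rises were 1 with Wnt-C59 (GC trend, or GC and length trends, removed) and 3 with the combination (GC and length trends removed). Shares of all genes called in these alternative fits are not given here. A loss or gain of calls among members can therefore not be set against one among all genes. The causes were not tested. Values for the combination against allogeneic skin changed sign for Cdk1 (0.01 with limma-voom and with no filter, 0.10 with the GC trend, 0.25 with GC and length trends removed, 0.32 with the covariate, 0.46, 0.11 and 0.04 without allogeneic 1, combination 2 or combination 3, and -0.27 to 0.46 over all left-out libraries), Ccnb1 (0.18, GC trend removed), Cenpf (0.32) and Plk1 (-0.05), both with GC and length trends removed. Against syngeneic skin Rrm1 (0.12) and Pola1 (0.05) did so with GC and length trends removed. The removal of GC and length trends together and the fit without libraries 4 and 5 were chosen after seeing the data.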

Other observations

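Of 19 tested G1 cyclins, kinases and E2F and RB family genes, 6 fell (31.6%, against 15.1% of all genes) and 1 rose in allogeneic against syngeneic skin. E2f2, an activator of S phase genes, averaged 16.2 ± 2.94 CPM in allogeneic skin (n = 3) and 69.8 ± 6.26 CPM in syngeneic skin (SD, n = 4) and fell (-2.11 ± 0.21, edgeR adjusted p = 1.3e-05). The D-type cyclin Ccnd2 (-1.69 ± 0.29) and its kinase Cdk4 (-0.82 ± 0.15) fell too (edgeR adjusted p = 0.00067 and 0.00096). With Wnt-C59 against allogeneic skin 5 of 19 rose (26.3%, against 24.6% of all genes) and 7 fell (36.8%, against 26.2%). With the combination 8 rose (42.1%, against 27.1%) and 7 fell (36.8%, against 27.4%). Rb1, which restrains E2F, averaged 11.4 ± 1.99 CPM in combination skin, 16.4 ± 4.58 CPM in Wnt-C59 skin and 52.1 ± 3.63 CPM in allogeneic skin (SD, n = 4, 4 and 3), and fell in both treated groups (-2.19 and -1.66, edgeR adjusted p = 1.5e-05 and 0.00013). Its relative Rbl1 fell by 1.82 and 1.52 (edgeR adjusted p = 0.00011 and 0.00051). GC content is 41.22% for Rb1 and 42.12% for Rbl1, so their falls stand under the same relation with GC content as those of the members.

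A list of 12 inhibitors of cyclin-dependent kinases and p53 targets was counted likewise. In allogeneic against syngeneic skin 1 rose (8.33%, against 14.6% of all genes) and 1 fell (8.33%, against 15.1%). The median log2 fold change was 0.01, beside -0.07 over all genes. Against allogeneic skin 4 of 12 rose and 3 fell with Wnt-C59, where 24.6% of all genes rose and 26.2% fell. With the combination 3 rose and 4 fell, where 27.1% of all genes rose and 27.4% fell. The counts of this list were thus near the shares of all genes. The gene that rose in allogeneic skin was Cdkn2a, which encodes p16 and p19 in other reading frames. It averaged 5.86 ± 2.70 CPM in allogeneic skin (n = 3) and 0.202 ± 0.177 CPM in syngeneic skin (SD, n = 4). It rose (4.81 ± 0.64, edgeR adjusted p = 0.0001), with few reads in syngeneic skin. It lay at 2.18 ± 0.483 CPM in combination skin and 1.35 ± 0.724 CPM in Wnt-C59 skin (SD, n = 4 each), lower than in allogeneic skin (-1.42 and -2.12, edgeR adjusted p = 0.038 and 0.0055). Mdm2, which degrades p53, fell in both treated groups against allogeneic skin (-0.99 ± 0.16 and -1.01 ± 0.16, edgeR adjusted p = 0.00012 and 0.00013), and Cdkn1c, a kinase inhibitor, rose with Wnt-C59 (1.81 ± 0.41, edgeR adjusted p = 0.002). These fold changes of treated against vehicle skin stand under the same relation with GC content as those of the members.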
